A study of Mus musculus with 6 samples.

Results

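The axon guidance genes described here are the semaphorins of classes 3 to 7, their plexin receptors, the Eph receptors and ephrins, the Slit ligands and Robo receptors, and the Unc5 netrin receptors. They were picked by patterns of gene names, in families chosen with earlier results of these data known. The patterns fit 62 rows of the deposited table, 3 of these (*Sema3g*, *Efnb2* and *Ephb4*) were left out, and 59 of 34745 listed genes remained. The study asked how the histone demethylase KDM5B, which removes methyl groups from lysine 4 of histone H3, acts in cardiac fibroblasts of the injured heart. RNA-seq was done on cardiac fibroblasts from the left ventricle of *Kdm5b* knockout mice (KO, 3 libraries) and littermate wild-type mice (WT, 3 libraries), all on a C57BL/6 background and all taken 7 days after myocardial infarction (MI) made by permanent ligation of a coronary artery in males aged 8 to 10 weeks. The knockout is a CRISPR/Cas9 deletion of the part of *Kdm5b* that holds the JmjC domain, it is not limited to fibroblasts, and every library, WT included, comes from an infarcted heart. No source used here says whether a library is a single animal or a pool, so the p-values measure only the spread between these libraries, which may be technical.

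Guidance ligands and receptors were first described in growing axons, and the same families steer migrating cells and sprouting vessels. Secreted class 3 semaphorins bind neuropilins, which pair with plexins, while membrane-bound semaphorins mostly bind plexins directly. Ephrins are held on the cell surface and signal to Eph receptors on the neighbouring cell. Slits are secreted ligands of Robo receptors such as *Robo1* and *Robo2*, and netrins are secreted ligands of the Unc5 family.

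Each library holds 12025403 to 15329427 counts on genes. Levels are given as CPM, counts scaled to the library total by the TMM method of edgeR. For counting error alone a gene with 0 counts in the smallest library could still be at up to 0.249 CPM, taken on the raw total without TMM scaling. The biological coefficient of variation between replicates was 10.9%. *Kdm5b* ran from 98.1 to 107 CPM in the KO libraries and from 108 to 128.5 CPM in WT, and its log2 fold change of -0.22 (standard error, SE, 0.07) missed the threshold with an adjusted p of 0.0574 from edgeR's quasi-likelihood test, so the groups are named by their labels and no more. Reads from the exons outside the deletion would still count, and the table has no exon values. The paper reports that Q-PCR and immunoblot found *Kdm5b* mRNA and KDM5B protein nearly absent from knockout cardiac fibroblasts. Fibroblast markers were abundant in all 6 libraries (summed level 27060 to 40320 CPM), macrophage markers summed to 1237 to 1636 CPM and cardiomyocyte markers to 814 to 1159 CPM, and those of lymphocytes and red cells were near 0.

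Of the 59 genes, 3 (*Epha5*, *Epha6* and *Epha10*) had no count in any library, 5 more (*Epha8*, *Slit1*, *Unc5d*, *Sema5b* and *Sema4f*) were too low for the expression filter, and 51 were tested, all in a single fit across 14084 genes. The test called 16 of the 51 higher in KO (31.4%), where 17.7% of all genes tested were called higher. It called 15 of the 51 lower (29.4%), against 12.5% of all genes. A rise of at least 2-fold was found for 10 of the 51 (19.6%), against 5.99% of all genes, and none of the 51 fell by that much (0 by edgeR, DESeq2 or limma with all 6 libraries, also at an unadjusted p under 0.05). Of the rises, *Ephb1*, *Plxnb3* and *Robo3* passed the expression filter only through the KO libraries, in which they were high, so their calls give no support of their own. Among the 47 genes with every WT library past the minimum of the filter, 13 were called higher (27.7%) and 7 rose at least 2-fold (14.9%). With a minimum mean CPM of 1 *Ephb1* and *Plxnb3* were not tested, and 14 of 49 genes were called higher. The share of all genes under either condition was not counted, so these restricted counts have no background to be set against. Without KO-1 or without KO-2 only 9 of the 15 falls kept their call, and *Efna2*, *Efna5*, *Epha7*, *Ephb2*, *Ephb3* and *Unc5a* were the falls lost in both cases. The rises of *Epha2* and *Plxna4* were lost without WT-1, WT-2 or WT-3, the former also without KO-1 and the latter also without KO-3, and the other 14 rises kept their call without any single library. All 3 KO libraries stood above all 3 WT libraries for 17 genes (33.3%, against 24.7% of all genes tested) and below them for 19 (37.3%, against 22.4%). The rises and falls differed in size. The 16 called rises had a median log2 fold change of 1.44 and reached 4.46, whereas the 15 called falls had a median of -0.42 and lay between -0.81 and -0.26. These rises include *Ephb1*, *Plxnb3* and *Robo3*, and no gene tested had a KO library below the minimum of the filter. The sizes are thus not compared on like terms. The largest rise outside these 3 genes was 4.09, for *Robo4*. Over all genes tested the called rises had a median of 0.65 and the called falls a median of -0.38. The calls of the falls differ with the scaling. With libraries scaled to fibroblast markers, a choice made after seeing the data, 16 of the 16 rises kept their call and 0 of the 15 falls did. Of these falls 9 stayed below 0 on the log2 scale, and *Slit2*, *Plxna1*, *Plxnb2*, *Sema3c*, *Sema6a* and *Efnb3* were called higher as well. Of the 15 fibroblast markers 13 were themselves called lower under TMM, with a list median of -0.40. This scaling therefore lifts the fold change of every gene and could hardly keep falls of that size. These are bulk values, in which fewer cells of a type and less RNA per cell cannot be told apart.

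**Figure D1:**
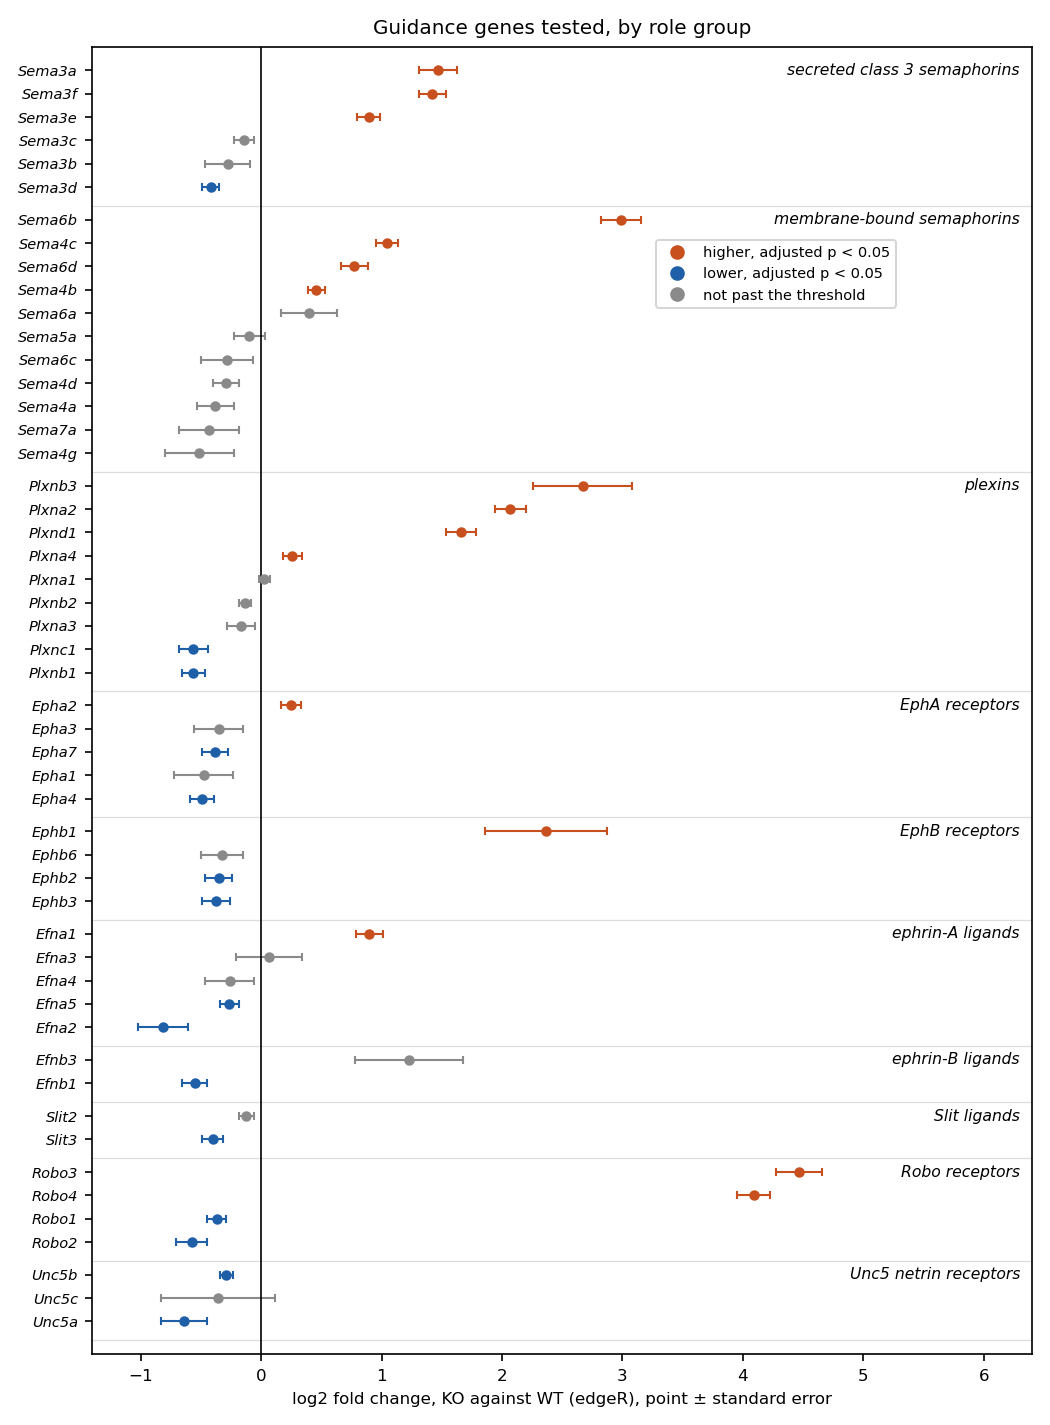
Log2 fold change of KO against WT for the 51 guidance genes tested, by role group, as points with the standard error from edgeR (n = 3 libraries per label). Orange marks the 16 genes called higher, blue the 15 called lower and grey the 20 not past the threshold. The rises reach 4.46, for *Robo3*, which passed the expression filter only through the KO libraries, and 4.09 for *Robo4*. No called fall passes -0.81 (with scaling to fibroblast markers no fall is called).

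The largest rises were those of a pair of receptors, *Robo4* and *Robo3*. *Robo4*, the Robo receptor of vascular endothelium, measured 45.4, 37.8 and 47.6 CPM in KO and 2.38, 2.87 and 2.42 CPM in WT. The KO libraries therefore all lay above 37 CPM and the WT libraries all below 3 CPM. Its log2 fold change was 4.09 (SE 0.14, adjusted p = 1.94e-06). *Robo3*, known for the crossing of the midline by commissural axons, measured 17.9, 15.3 and 19.6 CPM in KO and 0.7, 0.682 and 0.995 CPM in WT. Only WT-3 of the WT libraries passed the minimum of the filter, which is set on CPM without TMM scaling. The gene had no more than 14 counts in any WT library and at least 204 in each KO library, and its log2 fold change was 4.46 (SE 0.19, adjusted p = 4.86e-06). The other two members of the family went the opposite way under TMM, though with scaling to fibroblast markers *Robo1* came to 0.033. *Robo1*, the member with the highest level per gene length, measured 44.7, 49.7 and 48.7 CPM in KO and 56.4, 65.2 and 63.3 CPM in WT, again with no overlap, and its log2 fold change was -0.37 (SE 0.08, adjusted p = 0.00787). *Robo2* also fell, with a log2 fold change of -0.58 (SE 0.13, adjusted p = 0.0101), and ran from 9.23 to 12.0 CPM in KO and from 14.4 to 16.6 CPM in WT.

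On the scale of FPKM, which divides by gene length and so lets genes be compared, *Robo1* made up 87.9% ± 0.917 (SD, n = 3) of the summed Robo level in WT and 43.3% ± 3.85 in KO. *Robo4* took 3.87% ± 0.287 of it in WT and 41.9% ± 2.92 in KO, and *Robo3* took 0.836% ± 0.172 and 11.8% ± 0.785. In the KO libraries *Robo1* and *Robo4* were thus at a like level per length, *Robo4* being the higher of the pair in 2 of 3 libraries (6.49 against 6.003 FPKM in KO-1, 5.34 against 6.61 in KO-2 and 6.77 against 6.51 in KO-3). In WT the order was *Robo1*, *Robo2*, *Robo4* and *Robo3*. The summed Robo level was 14.8 ± 0.949 FPKM in KO and 9.14 ± 0.582 in WT.

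*Robo4* and *Robo3* are also neighbours. In mm10 *Robo4* lies on the plus strand at chr9:37401897-37414023 and *Robo3* on the minus strand at chr9:37415669-37433163, so that they run towards each other with 1646 bases and no other listed gene between their 3′ ends. No exon base is shared between them in GENCODE vM21. The counting tool and its strand setting are not given in the sources used here, so reads that run past the end of one gene into the other cannot be told apart from its own. *Robo1* and *Robo2*, on chromosome 16, are neighbours as well, 846 kb apart, and both fell.

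The promoters of the 3 genes with the largest rises are shown because these genes moved together and had at least 100 counts in each KO library. Each sequence is the RefSeq promoter of GRCm38.p6, from 250 bases before to 50 bases after the listed start, 5′ to 3′ on the strand of the gene. The windows are chr9:37433126-37433425 (minus strand) for *Robo3*, chr9:37401722-37402021 (plus strand) for *Robo4* and chr17:56140294-56140593 (minus strand) for *Sema6b*. Capitals mark matches to a GC box core (GGGCGG, or CCGCCC for the other strand).
Robo3: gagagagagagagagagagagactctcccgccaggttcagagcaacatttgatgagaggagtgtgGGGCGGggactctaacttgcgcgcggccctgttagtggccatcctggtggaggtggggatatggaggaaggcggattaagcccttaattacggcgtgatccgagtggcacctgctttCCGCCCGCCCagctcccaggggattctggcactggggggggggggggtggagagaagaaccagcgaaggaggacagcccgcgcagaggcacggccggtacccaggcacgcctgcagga
Robo4: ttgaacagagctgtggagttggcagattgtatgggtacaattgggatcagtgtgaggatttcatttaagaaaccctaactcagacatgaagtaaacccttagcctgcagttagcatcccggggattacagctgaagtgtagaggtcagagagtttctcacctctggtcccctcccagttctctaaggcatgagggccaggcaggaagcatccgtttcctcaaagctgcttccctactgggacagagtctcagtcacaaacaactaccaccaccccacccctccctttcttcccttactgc
Sema6b: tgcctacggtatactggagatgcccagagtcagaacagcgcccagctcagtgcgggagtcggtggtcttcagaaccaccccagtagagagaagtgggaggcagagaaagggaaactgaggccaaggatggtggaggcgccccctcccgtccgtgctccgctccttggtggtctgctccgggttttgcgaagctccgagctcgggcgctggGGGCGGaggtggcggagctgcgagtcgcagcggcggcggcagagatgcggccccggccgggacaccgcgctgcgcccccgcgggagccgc

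The *Robo3* window holds 3 GC box matches, a pair of them overlapping, the *Sema6b* window holds 1 and the *Robo4* window none. The ETS-type sequence CCGGAA (or TTCCGG, both strands) and the TATA box (TATAAA or TTTATA, both strands) have no match in these 3 windows. The search was for these exact letters, so shorter or variant ETS sites were not counted and may be present. No motif searched contains another. Of the 59 genes, 51 had a promoter in the RefSeq table, and *Sema6a*, *Sema3b*, *Sema3f*, *Slit1*, *Unc5d*, *Plxna1*, *Plxna4* and *Efnb3* had no entry. Across the 51, a GC box was found in 36 (70.6%), where 35.7% of all 32851 promoters of the same length have a match. The share was much the same among the genes called higher (10 of 14), called lower (10 of 15) and not past the threshold (12 of 16). The sequence CCGGAA or TTCCGG was found in 6 of 51 (11.8%, against 14.9% of all promoters), of which 1 was among the 14 called higher and 4 among the 15 called lower. A TATA box was found in *Slit2* alone (1.96%, against 13.6%). A match here is a run of letters and not a known binding site.

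Among the ligands, the secreted class 3 semaphorins moved in both directions: 3 of 6 rose (*Sema3a*, *Sema3f* and *Sema3e*), *Sema3d* fell and the other two did not pass the threshold. *Sema3f*, a ligand of neuropilin-2, measured 123, 93 and 112 CPM in KO and 43.2, 36.3 and 43 CPM in WT. The lowest KO library was at over 2 times the highest WT library, and the log2 fold change was 1.42 (SE 0.11, adjusted p = 7e-05). *Sema3a*, the founding repellent of the class and a ligand of neuropilin-1, measured 27.2, 18.5 and 22 CPM in KO and 9.17, 7.51 and 7.75 CPM in WT, with a log2 fold change of 1.47 (SE 0.16, adjusted p = 0.000368). *Sema3e*, which can bind *Plxnd1* without a neuropilin, ran from 73.7 to 82.3 CPM in KO and from 36.5 to 46.8 CPM in WT, and its log2 fold change was 0.89 (SE 0.09, adjusted p = 0.000315).

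*Sema3d* measured 79.8, 93.7 and 91.7 CPM in KO and 117, 124 and 113 CPM in WT. All KO values lay below all WT values, and the log2 fold change was -0.42 (SE 0.07, adjusted p = 0.00345). With the rise of *Sema3f* and the fall of *Sema3d*, the leading semaphorin per length changed: *Sema3d* made up 23.8% ± 1.18 (SD, n = 3) of the summed semaphorin FPKM in WT and 11.3% ± 1.54 in KO, and *Sema3f* 12.4% ± 1.13 in WT and 21.0% ± 1.72 in KO. *Sema3f* and *Sema4c*, at 20.4% ± 1.40, overlapped in KO within their spread. *Sema3c* had a log2 fold change of -0.14 (95% interval from -0.32 to 0.04) and *Sema3b* of -0.28 (from -0.71 to 0.16). *Sema3d* and *Sema3a* are neighbours on chromosome 5, 536 kb apart with no other listed gene between them, and *Sema3e* follows 423 kb further on, so genes of opposite direction lie side by side there.

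Of the 13 membrane-bound semaphorins, 11 were tested, 4 rose (*Sema6b*, *Sema4c*, *Sema6d* and *Sema4b*) and none was called lower by edgeR with TMM, by DESeq2 or by limma. By edgeR with TMM 2 of them, *Sema4a* and *Sema4d*, were lower at an unadjusted p under 0.05, and by the other two tools none was. With upper quartile scaling edgeR called 1 lower, *Sema4d* (-0.33, adjusted p = 0.0449). *Sema6b*, a ligand of A-type plexins, measured 21.9, 22.2 and 28.4 CPM in KO and 3.5, 3.07 and 2.56 CPM in WT. Each KO library was at over 6 times any WT library, and the log2 fold change was 2.99 (SE 0.16, adjusted p = 1.22e-05). Its share of the semaphorin FPKM was 1.99% ± 0.297 in WT and 10.0% ± 1.30 in KO. *Sema4c*, a ligand of *Plxnb2* and the membrane-bound semaphorin with the highest level per length, measured 105, 83.3 and 93.3 CPM in KO and 42.8, 46.4 and 47 CPM in WT, with a log2 fold change of 1.05 (SE 0.09, adjusted p = 0.000103). Its exons share 334 bases with the opposite-strand gene *D430040D24Rik* in GENCODE vM21, which had a mean of 32.7 counts in KO and 16.7 in WT, far below the 1111 to 1447 counts of *Sema4c* in KO. *Sema4b* measured 40.9, 38.1 and 42.4 CPM in KO and 29.2, 29.7 and 29.4 CPM in WT, a smaller difference but one between tight groups, with a log2 fold change of 0.46 (SE 0.07, adjusted p = 0.00174). *Sema6d*, a ligand of *Plxna1*, rose by 0.77 on the log2 scale (adjusted p = 0.00148). The fold changes of the 7 others ran from -0.51 for *Sema4g* to 0.40 for *Sema6a*, each with a 95% interval that spans 0 apart from *Sema4a* (-0.73 to -0.03) and *Sema4d* (-0.54 to -0.04), whose adjusted p missed the threshold at 0.0978 and 0.0782. The summed semaphorin level was 61.4 ± 4.22 FPKM in KO and 38.0 ± 0.381 FPKM in WT.

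**Figure D2:**
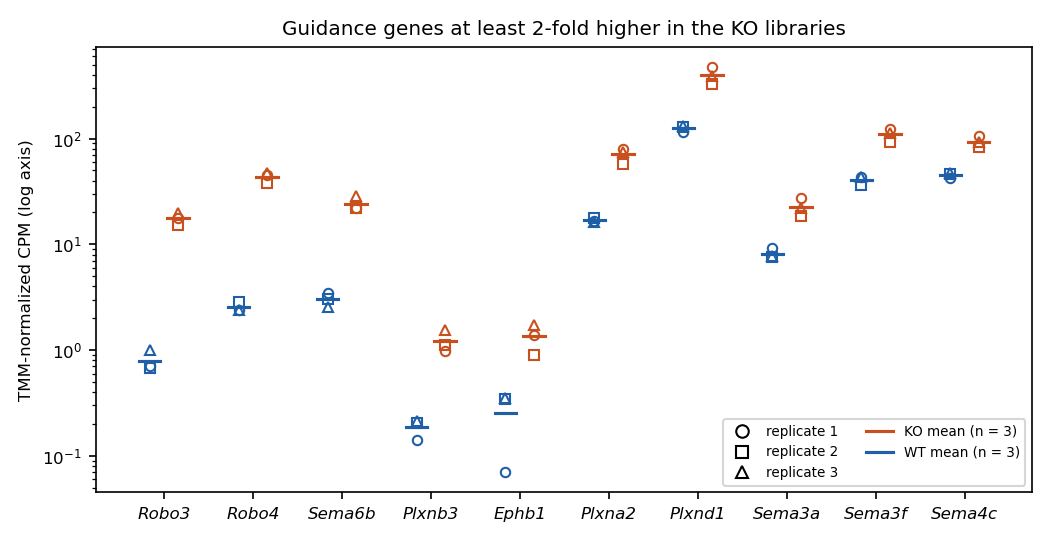
TMM-normalized CPM on a log axis for the 10 guidance genes that were at least 2-fold higher in KO, with a symbol for each library and a bar for the mean of 3 libraries. Orange is KO and blue is WT. No KO library overlaps a WT library for any of the 10, and *Plxnb3* and *Ephb1* lie lowest, with WT levels near the floor of 0.249 CPM (without TMM scaling).

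Among the ephrins, which bind to Eph receptors, 1 of 7 rose and 3 fell. *Efna1*, the main ligand of *Epha2*, measured 17.1, 15.6 and 15.5 CPM in KO and 9.1, 7.64 and 9.1 CPM in WT, without overlap, and its log2 fold change was 0.90 (SE 0.11, adjusted p = 0.000809). The ephrins that led per length went down under TMM, though *Efna5* came to 0.14 with scaling to fibroblast markers. *Efnb1* measured 31.4, 42.4 and 36.8 CPM in KO and 56, 53.4 and 52.3 CPM in WT, with a log2 fold change of -0.55 (SE 0.10, adjusted p = 0.00532), and *Efna5* measured 26.2, 30.1 and 30.1 CPM in KO and 33.5, 35.9 and 34.4 CPM in WT, with a log2 fold change of -0.26 (SE 0.08, adjusted p = 0.0387). The fall of *Efna5* was small, and it passed the threshold only just. *Efna2* had the largest fall of all 51 genes, with a log2 fold change of -0.81 (SE 0.20, adjusted p = 0.0183), at 1.88 to 2.84 CPM in KO and 3.77 to 4.44 CPM in WT. *Efnb3* was low, at 1.31, 0.975 and 2.26 CPM in KO and 0.84, 0.341 and 0.782 CPM in WT: its KO libraries lay above its WT libraries, but the log2 fold change of 1.23 (95% interval from 0.20 to 2.25) had an adjusted p of 0.0726. *Efna1*, *Efna3* and *Efna4* lie next to each other on chromosome 3, with gaps of 32.8 kb and 10.4 kb, and only *Efna1* of the 3 passed the threshold; *Efna3* had a log2 fold change of 0.07 and *Efna4* of -0.26, and whether these differ from that of *Efna1* was not tested. Per length, *Efna1* took 7.22% ± 0.591 of the summed ephrin FPKM in WT and 16.3% ± 1.96 in KO, and *Efnb1* 47.6% ± 1.54 and 38.9% ± 4.21. The sum itself was 26.8 ± 1.56 FPKM in KO and 31.4 ± 0.608 in WT.

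Neither Slit ligand tested rose under TMM, though *Slit2* came to 0.28 and was called higher with scaling to fibroblast markers. *Slit3*, the leading Slit per length, measured 106, 131 and 128 CPM in KO and 149, 162 and 169.6 CPM in WT, below WT in every KO library, and its log2 fold change was -0.40 (SE 0.09, adjusted p = 0.0102). *Slit2* measured 311, 324 and 337 CPM in KO and 325, 360.3 and 373 CPM in WT, with overlapping groups, and its log2 fold change was -0.12 (95% interval from -0.26 to 0.02), so that a change of more than 0.26 in either direction lies outside the interval. *Slit1* was barely counted, with 13 counts over the KO libraries and 2 over WT, a ratio per total count of 6.97 with a counting interval from 1.58 to 63.6 (95%, exact).

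Plexins are the receptors of semaphorins, and 4 of 9 rose, 2 fell and 3 did not pass the threshold. *Plxnd1*, a receptor of *Sema3e* known from vessel patterning, was the plexin with the largest gain in level, at 473, 330.1 and 390.2 CPM in KO and 116, 128 and 133 CPM in WT. The KO libraries spread more widely than the WT libraries, and none came near them. The log2 fold change was 1.66 (SE 0.12, adjusted p = 4.95e-05). *Plxna2*, a receptor of class 6 semaphorins and, with neuropilin, of class 3, measured 79.9, 57.2 and 75.4 CPM in KO and 16.5, 17.9 and 16.2 CPM in WT, with a log2 fold change of 2.07 (SE 0.13, adjusted p = 2.13e-05). In KO, *Plxnd1* made up 32.6% ± 4.60 of the summed plexin FPKM, close to the 34.6% ± 3.07 of *Plxnb2*, and in KO-1 it was the leading plexin (58.4 FPKM, against 48.9 for *Plxnb2*). In WT it made up 13% ± 0.458 and *Plxnb2* 47.8% ± 0.454.

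*Plxnb2* and *Plxna1* had the highest mean levels per length over the 6 libraries, although *Plxnd1* stood above *Plxna1* in each KO library. *Plxnb2* measured 435, 479.9 and 468 CPM in KO and 491, 508 and 520.1 CPM in WT, and though its groups did not overlap, its log2 fold change of -0.14 (95% interval from -0.25 to -0.02) had an adjusted p of 0.0760. Its call turned with the scaling, being lower with the upper quartile (-0.18, adjusted p = 0.0336) and higher with scaling to fibroblast markers (0.27). *Plxna1*, a receptor of *Sema6d* and of class 3 semaphorins, measured 416, 425 and 419.6 CPM in KO and 392, 420.1 and 426 CPM in WT, and its log2 fold change of 0.03 had a 95% interval from -0.08 to 0.13. Under TMM *Plxna1* is thus the member whose change is bounded most tightly around 0, but it came to -0.016 with the upper quartile and was called higher with scaling to fibroblast markers (0.43). *Plxna4*, a partner of neuropilin-1 for *Sema3a*, had a log2 fold change of 0.26 (SE 0.08, adjusted p = 0.0322). Its call was lost in 7 of 14 alternative fits, among them the upper quartile and both limma fits. *Plxnb1*, the receptor of *Sema4d*, fell by 0.56 on the log2 scale (adjusted p = 0.00311), and *Plxnc1*, the receptor of *Sema7a*, fell by 0.56 (adjusted p = 0.00977), with groups that did not overlap in either case. *Plxnb3*, a receptor of *Sema5a*, had few counts, 12, 15 and 24 in KO and 2, 3 and 3 in WT, and like *Ephb1* it entered the test through the KO libraries alone. The ratio of its summed counts per total count was 6.84 with an exact counting interval from 3.22 to 16.7, and its edgeR adjusted p was 0.00206. The summed plexin level was 149.5 ± 6.72 FPKM in KO and 116.0 ± 3.98 in WT.

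**Figure D3:**
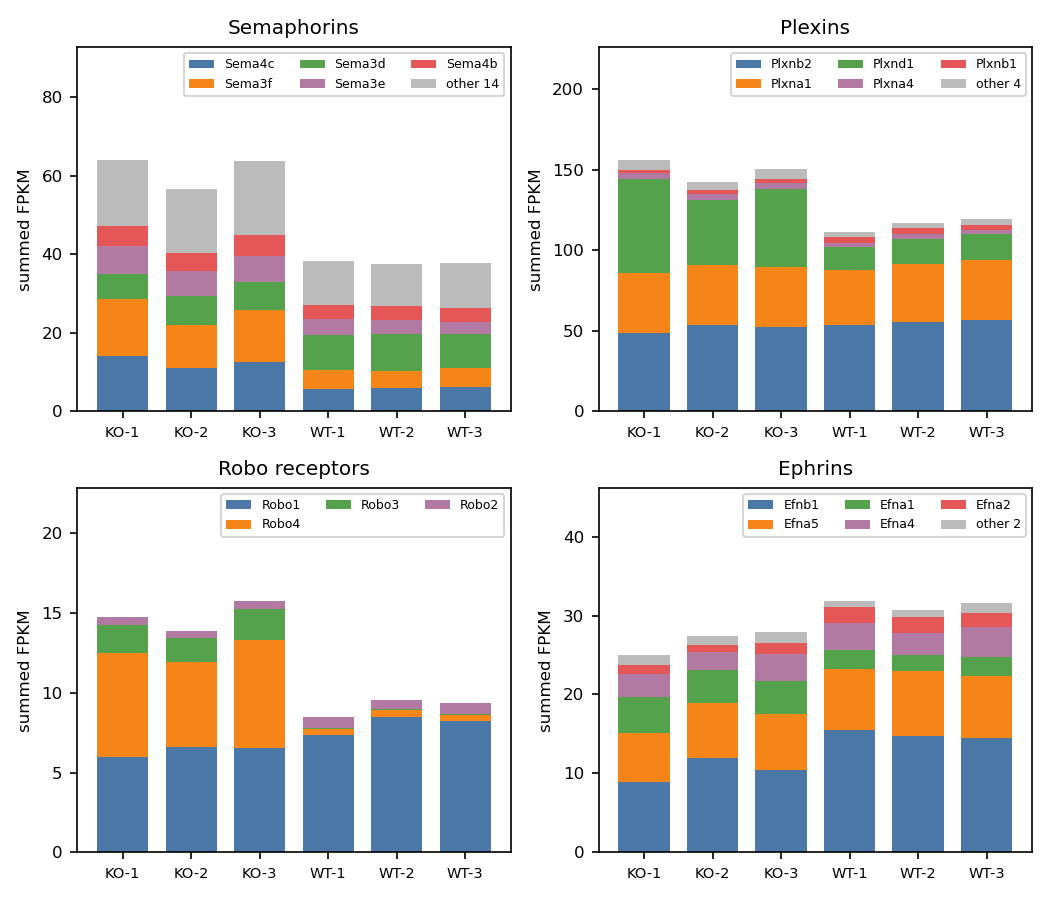
Summed FPKM of the semaphorins, plexins, Robo receptors and ephrins in each library, stacked by gene, with the 5 leading genes of each family in colour and the others in grey. *Plxnd1* widens from 13.9 to 16.0 FPKM in WT to 40.4 to 58.4 in KO, and *Robo4* and *Robo3* are visible only as thin bands in WT.

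Of the 13 Eph receptors, which are receptor tyrosine kinases, 9 were tested, 2 rose and 4 fell, of which *Epha7*, *Ephb2* and *Ephb3* came to between 0.022 and 0.051 with scaling to fibroblast markers. *Epha2*, the receptor of *Efna1* and by far the leading Eph receptor per length, measured 194, 162 and 161 CPM in KO and 137, 152 and 146 CPM in WT. The groups did not overlap, but the difference was small and near the threshold, with a log2 fold change of 0.25 (SE 0.08, adjusted p = 0.0482). *Epha2* made up 77.0% ± 3.22 of the summed Eph FPKM in KO and 68.9% ± 0.726 in WT. *Epha4* measured 15.4, 17.4 and 19.3 CPM in KO and 24.2, 25 and 24 CPM in WT, with a log2 fold change of -0.49 (SE 0.10, adjusted p = 0.00751), and *Ephb2* measured 36.1, 37.3 and 40.8 CPM in KO and 41.2, 55.9 and 48.8 CPM in WT, with a log2 fold change of -0.35 (SE 0.11, adjusted p = 0.0456). Both fell without overlap, *Ephb2* by a narrow margin between KO-3 and WT-1. *Epha7* fell by 0.38 (adjusted p = 0.0285) and *Ephb3* by 0.38 (adjusted p = 0.0388) on the log2 scale. *Ephb6*, which lacks kinase activity, measured 8.02, 11.5 and 9.15 CPM in KO and 11, 10.6 and 14.4 CPM in WT, overlapping, and its log2 fold change of -0.32 had a 95% interval from -0.72 to 0.07. *Ephb1* was the Eph receptor with the largest rise, from 1, 5 and 5 counts in WT to 17, 12 and 27 counts in KO, with a log2 fold change of 2.37 (SE 0.51, adjusted p = 0.00913). It was tested only because the KO libraries passed the filter, with none of the WT libraries past its minimum of 0.697 CPM without TMM scaling. The reading of *Epha1*, not past the threshold at -0.48, is uncertain, since 236 of its exon bases overlap *Zyx*, an abundant gene on the other strand.

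Among the Unc5 receptors, which bind netrins, 2 of 3 tested fell under TMM, though *Unc5b* came to 0.11 with scaling to fibroblast markers. *Unc5b*, which is known from vessel guidance, was the guidance gene with the highest level per length of all 59, and took 98.98% ± 0.201 of the summed Unc5 FPKM in KO and 98.7% ± 0.0544 in WT. It measured 465, 518 and 498 CPM in KO and 576, 621 and 615 CPM in WT, with a log2 fold change of -0.29 (SE 0.05, adjusted p = 0.00479). *Unc5a* fell too, at 3.03, 4.43 and 4.84 CPM in KO and 6.23, 6.89 and 6.18 CPM in WT, with a log2 fold change of -0.64 (SE 0.19, adjusted p = 0.0346). It shares 34 exon bases with *Hk3* on the other strand. *Unc5c* had a log2 fold change of -0.36 with a wide 95% interval, from -1.44 to 0.72, and *Unc5d* had 5 counts over the KO libraries and 8 over WT.

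By level, 7 of the 59 genes had a mean FPKM of 10 or more over the 6 libraries, and of these *Plxnd1* and *Epha2* rose, *Unc5b*, *Slit3* and *Efnb1* fell, and *Plxnb2* and *Plxna1* did not pass the threshold. Of the 26 genes from 1 to 10 FPKM, 10 rose and 9 fell. Of the 26 under 1 FPKM, 4 rose, 3 fell and 8 were not tested. Counted by side, 8 of the 26 ligands tested rose and 5 fell, and 8 of the 25 receptors tested rose and 10 fell. Ligands and their known receptors did not always move as pairs. *Sema3e* and *Plxnd1* both rose, as did *Efna1* and *Epha2*, and *Sema6b* and *Plxna2*. *Slit3* fell, as did its receptors *Robo1* and *Robo2*, and *Sema4c* rose while *Plxnb2* did not pass the threshold.

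The co-receptors, other ligands and intracellular effectors of these pathways were read from a list of 53 partner genes, of which 46 were tested, 9 rose (19.6%, against 17.7% of all genes tested) and 13 fell (28.3%, against 12.5%). With scaling to fibroblast markers the counts were 28 and 0, so the falls below are falls under TMM. Both neuropilins rose: *Nrp2*, co-receptor of *Sema3f*, ran from 430.6 to 544 CPM in KO and from 269 to 291 CPM in WT, and its log2 fold change was 0.79 (SE 0.08, adjusted p = 0.000287), while that of *Nrp1*, co-receptor of *Sema3a*, was 0.46 (SE 0.05, adjusted p = 0.000487). Neogenin (*Neo1*), a netrin and RGM receptor, rose by 0.47. The netrins *Ntn1* and *Ntn4* fell, *Ntn1* with a log2 fold change of -0.45 and *Ntn4* of -0.43. Among the effectors, the largest rises were those of *Crmp1*, a collapsin response mediator that acts in *Sema3a* signalling (log2 fold change 4.04), and *Arhgef15*, a guanine nucleotide exchange factor that acts below Eph receptors (3.74). Of the 3 Slit-Robo GTPase activating proteins, *Srgap3* (1.39) and *Srgap2* (0.50) rose, and *Srgap1* had a log2 fold change of -0.04 with overlapping groups (adjusted p = 0.748). *Vav3* (1.13) and *Arhgef12* (0.23) rose as well. The falls, among them those of the cytoskeletal effectors *Enah*, *Evl*, *Mical1*, *Mical2* and *Farp1*, lay between -0.45 and -0.22. The count of 13 falls was 8 without KO-1, KO-3 or WT-1 and 7 without WT-2 or WT-3, while the count of rises was 9 without any single library.

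**Figure D4:**
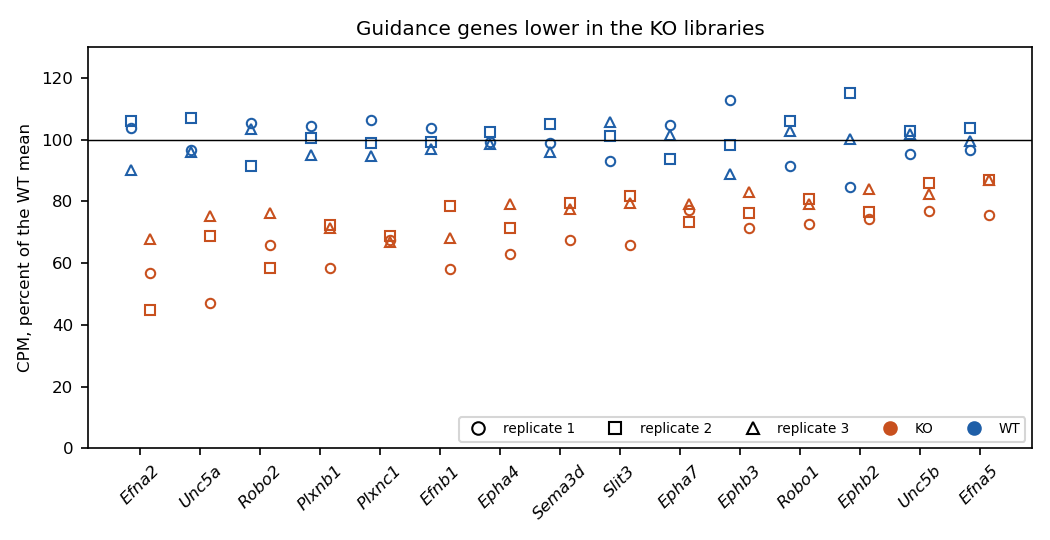
Level of the 15 guidance genes called lower in KO, as percent of the WT mean of each gene, with a symbol for each library (orange KO, blue WT) and a line at 100 percent. The groups do not overlap for any of the 15, and in 11 of the 15 KO-1 is the lowest library. With scaling to fibroblast markers none of the 15 is called lower.

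Markers of other cell types moved with both directions. Of 20 endothelial markers, all tested, 15 rose and none was called lower by edgeR with TMM, DESeq2 or limma (1, *Sox17*, at an unadjusted p under 0.05 by edgeR), with a median log2 fold change of 2.22. Their summed level was 3045, 2307 and 2637 CPM in KO and 899 to 910 CPM in WT. The rises included *Pecam1* (3.98), *Kdr* (4.23), *Cdh5* (2.31) and *Icam2* (4.56), whereas the abundant markers *Ptprb* (0.08) and *Eng* (-0.02) did not pass the threshold, at 287 to 315 and 254 to 271 CPM. KO-2 had the lowest endothelial sum of the KO libraries, and it was also the lowest KO library for 8 of the 10 guidance genes that rose at least 2-fold. This order is not particular to the endothelial list, as KO-2 also had the lowest KO sum for the lymphatic endothelial, neutrophil and cycling lists. How often KO-2 was the lowest KO library among all called rises was not counted. Of 5 lymphatic endothelial markers tested, *Lyve1* (6.08) and *Flt4* (1.84) rose and *Pdpn* fell (-0.43), while *Prox1*, the defining lymphatic factor, had a log2 fold change of -0.03 at 4.48 to 6.65 CPM. Of 8 neutrophil markers, 4 were tested and 2 rose, *S100a8* (2.99) and *S100a9* (1.95), and the list summed to 8.63 to 11.3 CPM in KO and 4.504 to 6.04 CPM in WT. *Ly6g*, too low to be tested, had 15, 10 and 7 counts in KO and 0 in each WT library. All 11 cycling genes rose, with a median of 0.89 and sums of 859 to 971 CPM in KO and 461 to 465 CPM in WT. Of 13 markers of Schwann cells and neurons, other cells that use these families, 5 were tested, and the list summed to 95.6 to 107 CPM in KO and 127.5 to 136 CPM in WT. *Dbh*, an enzyme of noradrenaline synthesis, rose (2.46 to 3.61 CPM in KO and 0.7 to 1.14 in WT, log2 fold change 1.65), *Mbp* (-0.55) and *Tubb3* (-0.46) fell, *Th* was at 0 in all libraries and *Sox10* at 0.193 to 0.983 CPM. The part of endothelial, lymphatic, nerve, neutrophil and cycling cells in the rises was not tested.

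The falls stood beside falls of fibroblast markers. Of 15 fibroblast markers, 13 fell, with a median over the list of -0.40 and sums of 27060 to 31540 CPM in KO and 37880 to 40320 CPM in WT, and *Pi16* alone rose (1.12). *Col1a1* had a log2 fold change of -0.44, *Postn* of -0.44 and *Pdgfra* of -0.32. The called falls of this list lay between -0.56 and -0.31, and 8 of the 15 guidance genes called lower lay inside that range. Other lists had much the same median: mesothelial -0.41 (6 of 7 fell and 1 rose, *Krt19* at 1.53), mural -0.40 (3 of 7 fell and 2 rose, *Mcam* at 1.39 and *Abcc9* at 0.84), macrophage -0.38 (6 of 11 fell and 1 rose, *Cd68* at 1.39) and cardiomyocyte -0.35 (7 of 13 fell, and all 13 were below 0). The scaling to fibroblast markers moved the median log2 fold change of all genes tested to 0.39. In that edgeR fit none of the 51 was lower even at an unadjusted p under 0.05. The falls are thus called under TMM and not relative to fibroblast markers. Scaled to the library total, 12 of the 15 were called, and *Efna5*, *Ephb2* and *Ephb3* were not.

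**Figure D5:**
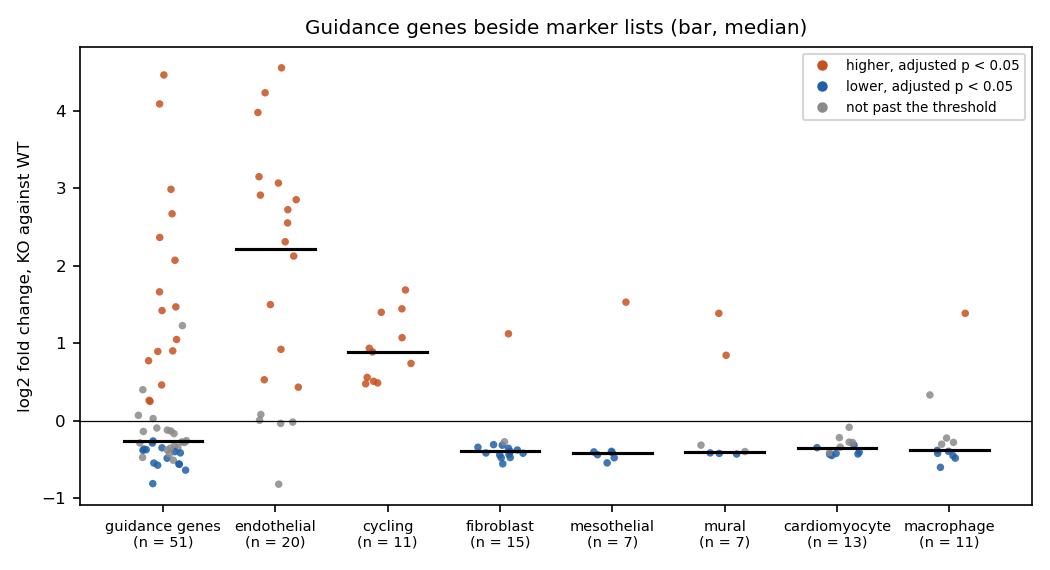
Log2 fold change of KO against WT for each guidance gene tested and for each gene tested in 7 marker lists, with a bar at the median and colours by call as above. The endothelial and cycling lists have medians of 2.22 and 0.89, and the fibroblast, mesothelial, mural, cardiomyocyte and macrophage lists have medians from -0.41 to -0.35, with 1 or 2 genes above 0 in each except the cardiomyocyte list.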

How the data were processed

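RNA-seq libraries of cardiac fibroblasts labelled KO (n = 3) and WT (n = 3) were compared. Per the study's methods and the submitters' notes, 150 bp paired-end reads were mapped to mm10 (GRCm38.p4) with HISAT2; the counting tool, annotation and strand setting are not given in the sources used here. The counts the authors deposited are whole numbers per gene without normalization, and the FPKM values the authors deposited hold the same counts scaled by gene length and by the library total.

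KO and WT counts were compared by the quasi-likelihood test of edgeR 4.0.16 under R 4.3.3 (filterByExpr, TMM, glmQLFit, glmQLFTest, Benjamini-Hochberg adjustment over all 14084 genes tested, two-sided, threshold 0.05), with 6 libraries and no covariate. CPM are TMM-normalized, and log2 fold changes are edgeR estimates of KO against WT. FPKM were used only for levels and shares within families. Totals of 12025403 to 15329427 counts and 3 libraries per label limit the precision. Values are given in every library for genes with a rise or fall of at least 2-fold past the threshold and for the 2 genes of highest mean FPKM among those tested in each role group; others are given by counts, ranges or single values. Marker and partner genes come from lists, in which names on several rows were left out. The members, the lists, the tests and this rule were chosen with earlier results of these data known. Mouse promoters came from RefSeq (GRCm38.p6) and exon overlaps from GENCODE vM21.

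The comparison was repeated with DESeq2 1.42.0, with limma 3.58.1 on log2(FPKM + 1) and log2(FPKM + 0.1), without a filter or with a minimum mean CPM of 1, with scaling by library size or upper quartile, with a block for the replicate number, with a fold change above 2 required, and leaving out each library in turn. Scaling to fibroblast markers was added after seeing the data. The main edgeR test and DESeq2 were checked on simulated counts, and limma was not. Plots were made in Python 3.11.15 (matplotlib 3.10.9).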

Additional observations from a re-analysis of the deposited data

How the results depend on the processing

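The count of 16 rises was 14 to 17 under every setting apart from scaling to fibroblast markers and a fold change above 2, which left 10, and 0 of 15 falls passed that threshold. The number of falls called was 14 with no filter, 15 at a mean CPM of at least 1, 11 with DESeq2 and 12 with library size scaling. It was 17 with the upper quartile, where the 15 were joined by *Plxnb2* and *Sema4d*. With limma it was 11 or 10 at a pseudocount of 1 or 0.1, and with a library left out 9 to 11. With a fold change above 2, partner genes had 4 rises and 0 falls, and 882 genes in all were called in place of 4248. Partner falls ran from 7 to 12 with a library left out. *Kdm5b* had a log2 fold change of -0.26 with the upper quartile and -0.21 with the replicate block, both past the threshold, and -0.29 to -0.17 with a library left out, past it without WT-1 only.

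Libraries of the same number did not deviate together (correlations of 0.00211, 0.00318 and 0.0347), so the numbers pair nothing. With the replicate number as a block, 15 rises and 14 falls were called, *Epha2* and *Ephb3* being lost, and 3907 genes in all.

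Scaling to fibroblast markers gave 22 rises and 0 falls, 28 partner rises and 0 partner falls, 8448 genes called and 0.19 for *Kdm5b*, and it turned the following members to log2 fold changes above 0: *Sema4a* 0.018, *Epha7* 0.022, *Ephb3* 0.027, *Unc5c* 0.029, *Robo1* 0.033, *Epha3* 0.047, *Ephb2* 0.051, *Ephb6* 0.075, *Unc5b* 0.11, *Sema4d* 0.12, *Sema6c* 0.12, *Sema3b* 0.12, *Efna5* 0.14, *Efna4* 0.15, *Plxna3* 0.23, *Sema3c* 0.27, *Plxnb2* 0.27, *Slit2* 0.28 and *Sema5a* 0.30. Under the other settings, 4 genes that were not called changed sign: *Plxna1* (-0.016 with the upper quartile, and -0.012 to 0.048 with a library left out), *Sema5a* (-0.21 to 0.013 with a library left out), *Unc5c* (-1.14 to 0.0061) and *Efna3* (-0.14 to 0.35). The cause of these changes was not tested, beyond the smaller number of libraries in the leave-out fits. Depth limits the 8 genes below the filter and *Plxnb3* and *Ephb1*, whose WT libraries hold 1 to 5 counts.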
